A study of Cavia porcellus with 72 samples.

Results

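The effect of antenatal synthetic glucocorticoid (sGC) on hippocampal mRNA was compared between 2 generations of guinea pigs, F2 and F3. For every gene, the log2 difference of sGC minus control in F3 was set against the same difference in F2, and the F3 value minus the F2 value is called the interaction here. The comparison used 25 of the 72 samples of the series, namely the RNA-seq libraries of 6 control and 6 sGC animals in F2 and of 6 control and 7 sGC animals in F3. Genes were the 11475 present in both the F2 table (11716 genes) and the F3 table (11663 genes), and 11341 of them had enough reads to be tested.

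All groups were juvenile female Dunkin-Hartley guinea pigs, whose right hippocampus was taken at postnatal day 40. They descended through the paternal line from F0 pregnancies whose mothers were given betamethasone, an sGC, or saline as control. The drug was dosed at 1 mg/kg, over 3 courses, from day 40 to day 61 of gestation. F1 males sired the F2 animals and F2 males the F3 animals, each with untreated females from outside the experiment, so that no F2 or F3 animal or its mother was dosed. The females came from independent mothers, and each library is 1 animal.

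Glucocorticoids act through the glucocorticoid receptor and the mineralocorticoid receptor, both of which are abundant in the hippocampus, where they take part in the feedback that ends a stress response. Betamethasone crosses the placenta and reaches the fetal brain. In a paternal line, the F1 fetus and the germ cells that will form F2 lie within the treated pregnancy, and F3 is the generation whose germ cells were not yet present. Markers of hippocampal neurons were present, with 12 of 15 CA pyramidal and 6 of 9 dentate granule cell markers past the filter on low counts. Markers of neocortical (6 of 7), striatal (9 of 12) and thalamic neurons (7 of 9) passed it in like shares, so the filter does not single out the region, and the granule cell factor PROX1 had control means of 113 CPM (counts per 1000000 counts, scaled by the TMM method) in F2 and 104 CPM in F3.

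Counts per library summed to between 13507449 and 17487415 in F2 and between 14703487 and 18909140 in F3. The deposited counts had been adjusted. Within each generation, log(count + 1) varied along 1 combination of the libraries only by the rounding to whole numbers, so that 1 direction of variation had been taken out, and the spread between libraries is understated to that extent. In F3, 79.6% of the squared weight of that direction lay on sGC replicate 5. The library's root mean square deviation from its group mean was 0.0527 on the log2 scale, against 0.121 to 0.190 for the other 24 libraries. The main counts of genes are also given without it. The labels number the RNA libraries, and numbers 32 to 36 are all sGC, 33 in F2, 34 and 36 in F3, and 32 and 35 in F1. No control has a number above 31, so number and treatment partly go together, and unevenly between generations. What the numbers stand for is not given in the labels.

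**Figure D1:**
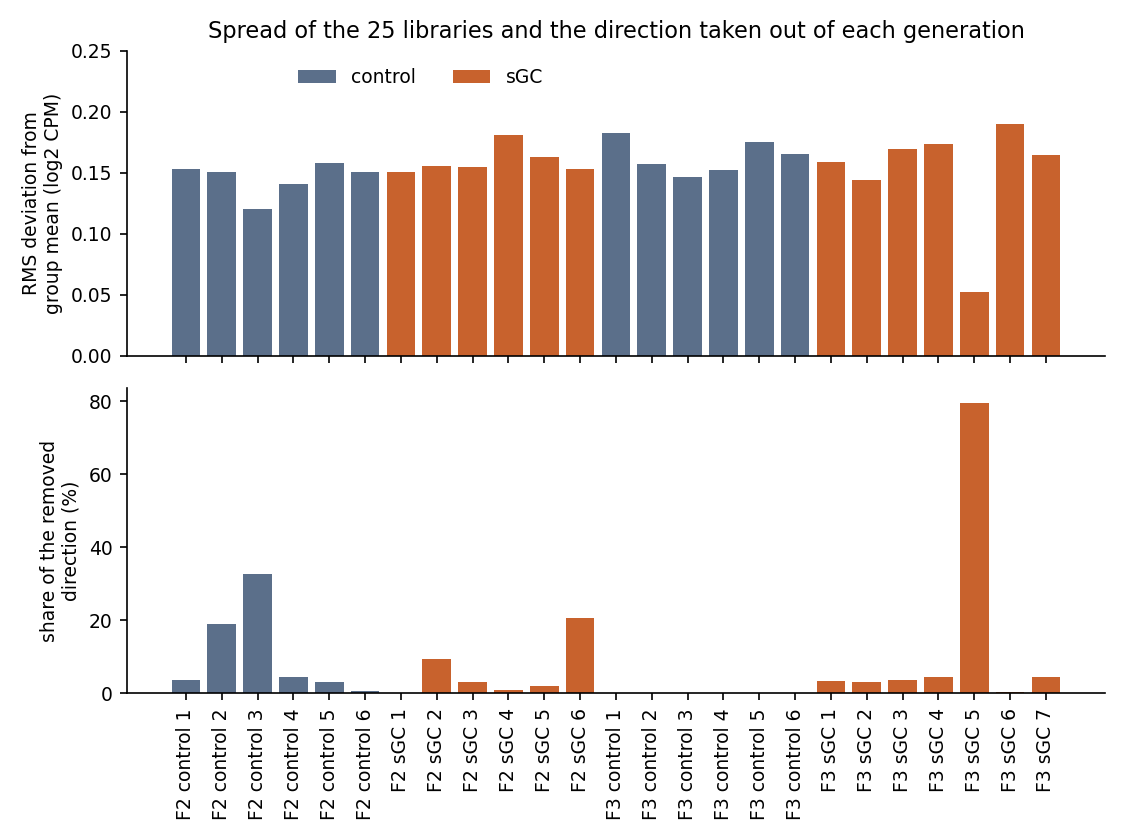
Root mean square deviation of each of the 25 libraries from its group mean (log2 CPM, top) and the share of the squared weight of the direction taken out of its generation (percent, bottom), with control and sGC libraries in different colours. F3 sGC replicate 5 stands apart in both panels, with a deviation of 0.0527 and a share of 79.6%.

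The generations also stood apart in level. The first principal component held 73.7% of the variance of the log2 CPM values and put all F2 libraries on one side and all F3 libraries on the other. Between F3 and F2 control animals, 4537 of 11341 genes differed (40%) by edgeR's quasi-likelihood test at an adjusted p below 0.05, 2295 higher in F3 (20.2%) and 2242 lower (19.8%). Between the sGC animals 4632 did (40.8%), 2306 higher (20.3%) and 2326 lower (20.5%). With upper quartile scaling the splits were 1706 higher and 3062 lower in control and 1876 higher and 2906 lower in sGC animals. In the fit of all 36 RNA libraries, the control levels of F3 and F2 lay more than 1 log2 unit apart in 431 of 11390 genes. The F1 control level lay within 0.25 log2 units of F3 but not of F2 in 403 of them, and of F2 but not of F3 in 1. A difference between generations and any difference in how their libraries were made or counted cannot be told apart. Each sGC effect below is a difference within a generation, and the interaction compares those differences.

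No gene's sGC effect differed between F3 and F2 at an adjusted p below 0.05 in edgeR's quasi-likelihood test (0 of 11341, 0%), where the smallest adjusted p was 0.0748. At an unadjusted p below 0.05 there were 1302 genes (11.5%), 555 with a higher effect in F3 (4.89%) and 747 with a lower one (6.59%). Below an adjusted p of 0.1 lay 12 genes (0.106%), of which NELL2, HSPH1, GALNT18, APP, ATP6AP2, C20orf196, ZDHHC14 and NR3C2 had a lower effect in F3 (0.0705%) and GABPA, TDRD7, RHOJ and TSPOAP1 a higher one (0.0353%). edgeR's likelihood ratio test called 37 genes, DESeq2 96 and limma-voom 0. The likelihood ratio test and DESeq2 shared 23 genes, 62.2% of the first list and 23.96% of the second. DESeq2 gave some genes no adjusted p and so could not call them. Among these were GALNT18, TDRD7, RHOJ and ZDHHC14, which the likelihood ratio test called, so the overlap is not a plain measure of how far the tools differ. Without F2 sGC replicate 6 the quasi-likelihood test called 25 genes, 5 higher and 20 lower, and without F3 sGC replicate 5 it called 0.

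Within each generation the numbers of genes that passed were unlike, a difference that the test of the interaction does not cover. In F2, 0 of 11341 genes passed by edgeR's quasi-likelihood test (0%), with 642 at an unadjusted p below 0.05 (5.66%, of which 3.09% higher and 2.57% lower in sGC animals) and 0 calls by the likelihood ratio test, DESeq2 or limma-voom. In F3, 964 genes passed (8.5%), 427 higher (3.77%) and 537 lower (4.74%) in sGC animals. Without F3 sGC replicate 5 the count was 670, and with the F1 libraries in the same fit it was 334. A gene that passed in F3 and not in F2 is not thereby shown to differ between them. Of the 964, 565 had an interaction with an unadjusted p below 0.05, and for the other 399 the 95% interval of the interaction included 0. The median half-width of that interval over all genes was 0.16 log2 units, while the median size of the F3 effect was 0.068.

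The F2 and F3 effects share no library. Across the 11341 genes they had a Pearson correlation of 0.073 and a Spearman correlation of 0.14, and 56.7% of genes had the same sign in both, which describes these libraries, since genes are not independent replicates. Among the 964 genes that passed in F3, 730 (75.7%) had the same sign in F2. The 427 higher genes had a median of 0.18 in F3 and 0.046 in F2, and the 537 lower genes a median of -0.15 in F3 and -0.025 in F2. All sGC libraries lay beyond all control libraries in 310 genes in F3 (2.73%, with 0.82% above and 1.91% below) and in 43 genes in F2 (0.379%).

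**Figure D2:**
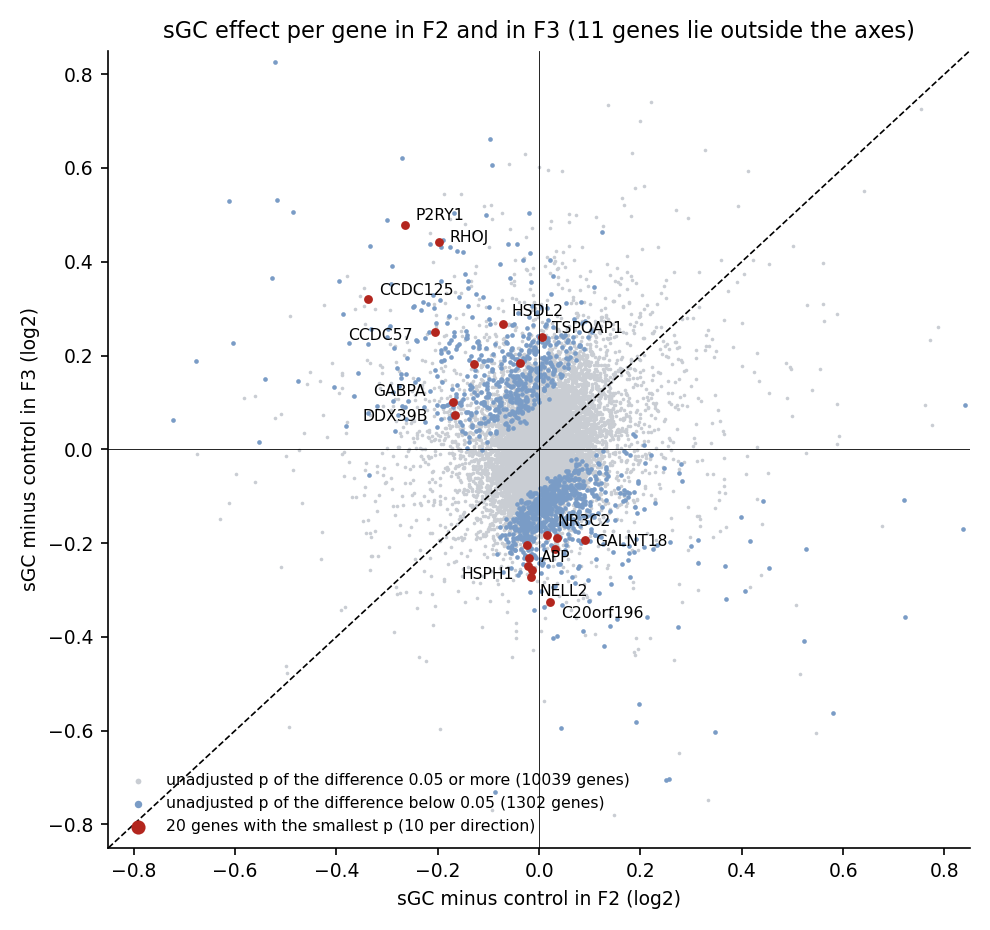
Log2 difference of sGC minus control in F2 (horizontal) against F3 (vertical), 1 point per gene. The 1302 genes of unadjusted interaction p below 0.05 are in blue, and the 10 genes of smallest p in each direction are in red. On the dashed line both effects are equal, and 11 genes lie outside the axes.

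The genes with the smallest p and a lower effect in F3 are described first, and none of them passed the test of the difference. Together with SYP they had one pattern, in that the F3 sGC group was the lowest of the 4 groups and the F2 groups overlapped, with GALNT18 the exception. In NELL2, which encodes a secreted glycoprotein of neurons that guides axons through ROBO3, the lowest, median and highest levels were 854, 887 and 964 CPM in F2 control, 836, 898 and 905 CPM in F2 sGC, 840.2, 852 and 896 CPM in F3 control and 673, 714 and 759.9 CPM in F3 sGC animals. All 7 F3 sGC libraries lay below every other library. The sGC effect was -0.016 in F2 and -0.27 in F3 on the log2 scale, and the interaction was -0.26 (standard error 0.0465, adjusted p = 0.0748 by edgeR). Of the 30 genes named by rule it passed the threshold under the most alternatives, 7, with an adjusted p from 0.000180 to 0.494 over all of them.

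APP encodes the amyloid precursor protein, a membrane protein of neurons that is cut by secretases. Its levels were 1977, 2172 and 2217 CPM in F2 control and 1948, 2111 and 2226 CPM in F2 sGC animals (lowest, median and highest). In F3 they were 2089, 2195 and 2321 CPM in control and 1818, 1846 and 1923 CPM in sGC animals. The F2 groups overlapped, and the F3 groups did not. APP fell in F3 by 0.25 on the log2 scale (adjusted p = 5.93e-05 by edgeR), its F2 effect was -0.022, and the interaction was -0.23 (standard error 0.0469, adjusted p = 0.0748). Of the 17 genes tested of the APP family and its processing enzymes, 3 fell in F3 and 0 rose (4.74% and 3.77% of all genes did). Those that fell were APP, its relative APLP2 (-0.13 in F3 and -0.0062 in F2) and the relative APLP1 (-0.13 and 0.0069). The number that fell was 2 without F3 sGC replicate 5 and 2 with all 36 RNA libraries in the fit. The list's median interaction was -0.040, against 0.0013 over all genes, and it moved to -0.097 without the sGC libraries that the labels number 32 to 36.

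NR3C2, the mineralocorticoid receptor, and SYP, synaptophysin, a membrane protein of synaptic vesicles, are shown with the oligonucleotides that the study designed for them and for GAD1, since they are the study's own qRT-PCR primers for these transcripts. The primers are written 5′ to 3′ and come from the study's supplementary primer list.
NR3C2 forward: aaacgtatcaagctctactttac
NR3C2 reverse: cccatagtgacatcctgag
SYP forward: gacatggacgtggtgaatcag
SYP reverse: tcttgttggcacattccacg
GAD1 forward: tgtttgcccgagatctgctt
GAD1 reverse: tggtggagcgatcaaaggtc
Levels of NR3C2 were 149, 152 and 158 CPM in F2 control and 142, 155 and 159.7 CPM in F2 sGC animals, and 146.8, 149 and 152 CPM in F3 control and 124, 131 and 141 CPM in F3 sGC animals (lowest, median and highest). Only the F3 sGC group was set off, and its highest animal lay below the lowest of each other group. NR3C2 fell in F3 by 0.18 on the log2 scale (adjusted p = 0.000375 by edgeR), its F2 effect was 0.016, and the interaction was -0.20 (standard error 0.0434, adjusted p = 0.0916). In F2 sGC, replicate 3 lay at 142 CPM, apart from the other 5 animals.

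SYP levels were 1195, 1249 and 1350.2 CPM in F2 control, 1151, 1244 and 1311 CPM in F2 sGC, 1275, 1315 and 1353 CPM in F3 control and 1081, 1133 and 1171 CPM in F3 sGC animals (lowest, median and highest). The F3 sGC animals lay below the controls of both generations and overlapped only the F2 sGC animals. The gene fell by 0.22 in F3 (adjusted p = 0.000119 by edgeR), its F2 effect was -0.022, and its interaction was -0.19 (adjusted p = 0.101).

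HSPH1, a chaperone that works with HSP70, had 331, 342 and 373 CPM in F2 control and 321, 343 and 368 CPM in F2 sGC animals, and 321, 341 and 354 CPM in F3 control and 269.9, 287 and 294 CPM in F3 sGC animals. Again the F3 sGC animals lay below all other libraries. The effect was -0.014 in F2 and -0.26 in F3, with an interaction of -0.24 (standard error 0.0483, adjusted p = 0.0748 by edgeR). ATP6AP2, the prorenin receptor and an accessory subunit of the vacuolar proton pump, had 196.3, 209 and 216 CPM in F3 control and 172, 181.4 and 189 CPM in F3 sGC animals, and its F2 libraries ranged from 208 to 223 CPM over both groups. Its interaction of -0.18 (standard error 0.0375, adjusted p = 0.0748) was -0.20 in F3 less -0.023 in F2.

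The other lower genes were of several kinds. C20orf196, also named SHLD1, a subunit of the shieldin complex of DNA repair, had an effect of -0.33 in F3 and 0.022 in F2 (interaction -0.35, adjusted p = 0.0795 by edgeR), the largest interaction of these lower genes. Its F3 control libraries spread from 559 to 716 CPM, and those of F3 sGC from 481 to 554 CPM. ZDHHC14, a palmitoyltransferase, had an interaction of -0.23, and PIK3C3, the lipid kinase of autophagy and endosomes, one of -0.25 (adjusted p = 0.0834 and 0.101). In both genes the F3 sGC animals lay below all F3 controls. GALNT18, a glycosyltransferase of the GalNAc-transferase family, differed from the rest in that its 6 F2 sGC animals, at 65.1, 67.4 and 69.7 CPM, all lay above the F2 controls at 60.7, 63.6 and 64.9 CPM. In F3 its sGC animals, at 57.9, 60.9 and 65.3 CPM, overlapped the controls at 62.3, 70.0 and 75.8 CPM, so the effects had opposite signs, 0.090 in F2 and -0.19 in F3.

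**Figure D3:**
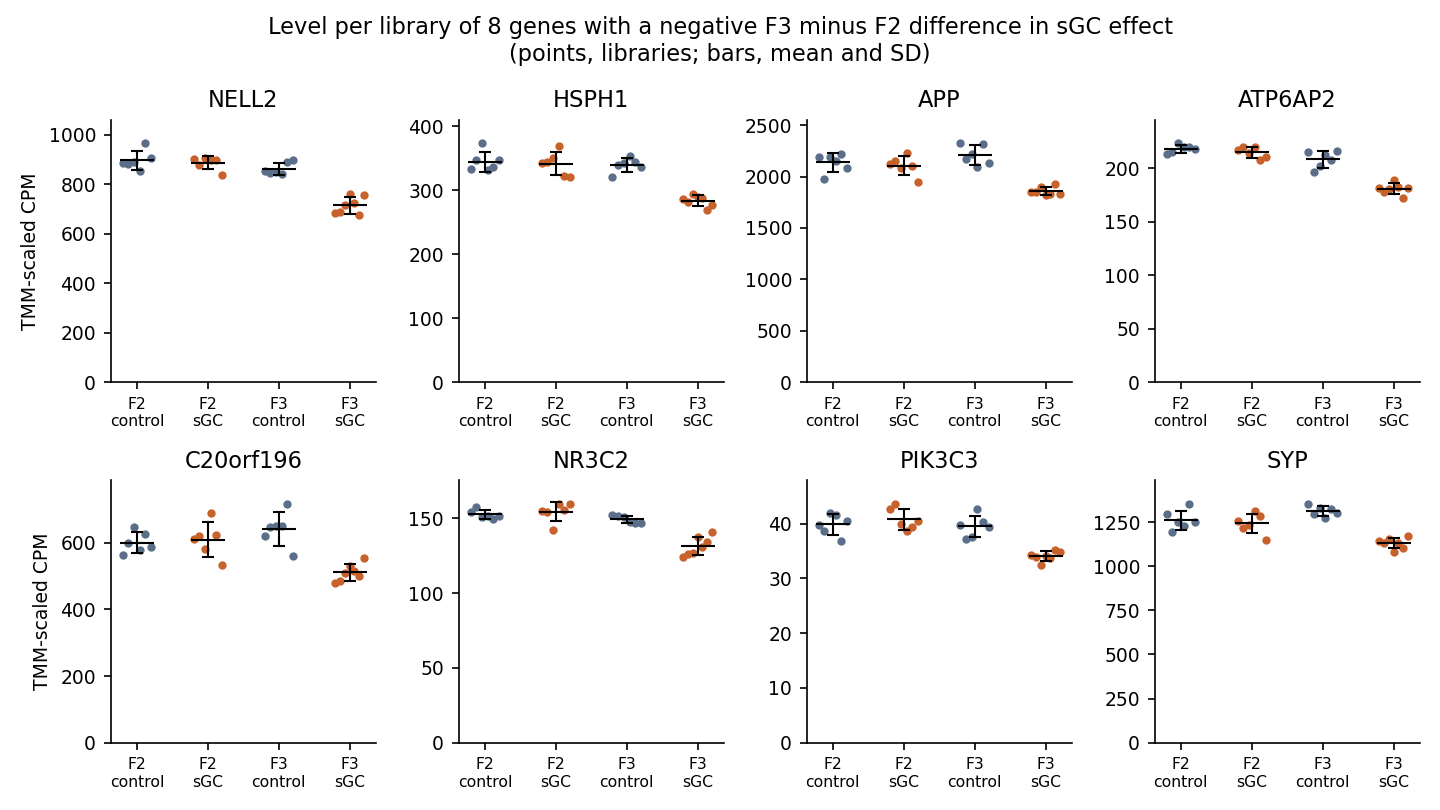
TMM-scaled CPM of 8 genes with a negative interaction in each library (points) of the 4 groups, with mean and SD as black bars and the vertical axes starting at 0. In NELL2, HSPH1, APP, ATP6AP2, NR3C2 and PIK3C3 the 7 F3 sGC libraries lie below every other library.

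The 10 genes with the smallest p and a higher effect in F3 did not pass the test either, and their 4 groups were arranged differently. In most of them the F2 effect was below 0 and the F3 effect above it. RHOJ, a small GTPase of blood vessels, had 4.69, 5.22 and 5.73 CPM in F2 control and 3.45, 4.45 and 5.77 CPM in F2 sGC animals, and 3.89, 4.39 and 5.08 CPM in F3 control and 5.16, 5.90 and 6.49 CPM in F3 sGC animals (lowest, median and highest). The F2 groups overlapped, and every F3 sGC animal lay above every F3 control. The effects were -0.20 in F2 and 0.44 in F3, and the interaction was 0.64 (standard error 0.136, adjusted p = 0.0803 by edgeR). P2RY1, a receptor for ADP, had 7.83, 9.77 and 10.9 CPM in F3 control and 10.4, 12.3 and 16.7 CPM in F3 sGC animals, which overlapped, and F2 effects of the opposite sign (-0.26 against 0.48 in F3). Its interaction of 0.74 (standard error 0.172, adjusted p = 0.106) was the largest of the 20 genes, and its F2 control replicate 5 was low at 7.59 CPM.

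TSPOAP1, a scaffold protein of presynaptic release sites, showed another arrangement. Its levels were 216, 224 and 236 CPM in F2 control, 206, 231 and 237 CPM in F2 sGC, 172.8, 191.2 and 199 CPM in F3 control and 209, 224 and 229 CPM in F3 sGC animals. The F3 control group was the low one, and the F3 sGC animals lay within the range of the F2 animals. Its effect was 0.0058 in F2 and 0.24 in F3, with an interaction of 0.23 (standard error 0.0506, adjusted p = 0.0834 by edgeR). AK3, an adenylate kinase of mitochondria, and HSDL2, a peroxisomal dehydrogenase-like protein, rose in F3 by 0.18 and 0.27 (adjusted p = 0.00200 and 0.00338). Their F2 effects were -0.037 and -0.071.

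DDX39B, an RNA helicase of splicing and mRNA export, had its larger effect in F2. Its levels were 206, 213 and 217 CPM in F2 control and 179, 183 and 215 CPM in F2 sGC animals, 5 of which lay below all controls. In F3 they were 208, 222 and 239 CPM in control and 218, 233 and 247 CPM in sGC animals, which overlapped. The effect was -0.17 in F2 (unadjusted p = 0.000482, adjusted p = 0.747 by edgeR) and 0.073 in F3 (adjusted p = 0.286). CCDC125 and CCDC57, coiled-coil proteins, had opposite signs in the generations, -0.34 and -0.21 in F2 against 0.32 and 0.25 in F3.

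GABPA and TDRD7 belong to the genes whose level differed widely between generations. GABPA, an ETS-family transcription factor, had 15.1, 16.4 and 16.9 CPM in F2 control and 13.3, 14.4 and 15.5 CPM in F2 sGC animals, against 214, 228 and 239 CPM in F3 control and 237, 243 and 251 CPM in F3 sGC animals. F1 control animals had a mean of 224 CPM in the fit of all RNA libraries, near F3. The folds in F2 and F3 are thus taken at very different levels, and the interaction of GABPA was 0.27 (adjusted p = 0.0748 by edgeR). TDRD7, a Tudor domain protein of RNA granules, went the other way, with control means of 112 CPM in F2, 36.9 CPM in F3 and 36.1 CPM in F1, and an interaction of 0.31 (adjusted p = 0.0748). The part of this level gap in either interaction was not tested.

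**Figure D4:**
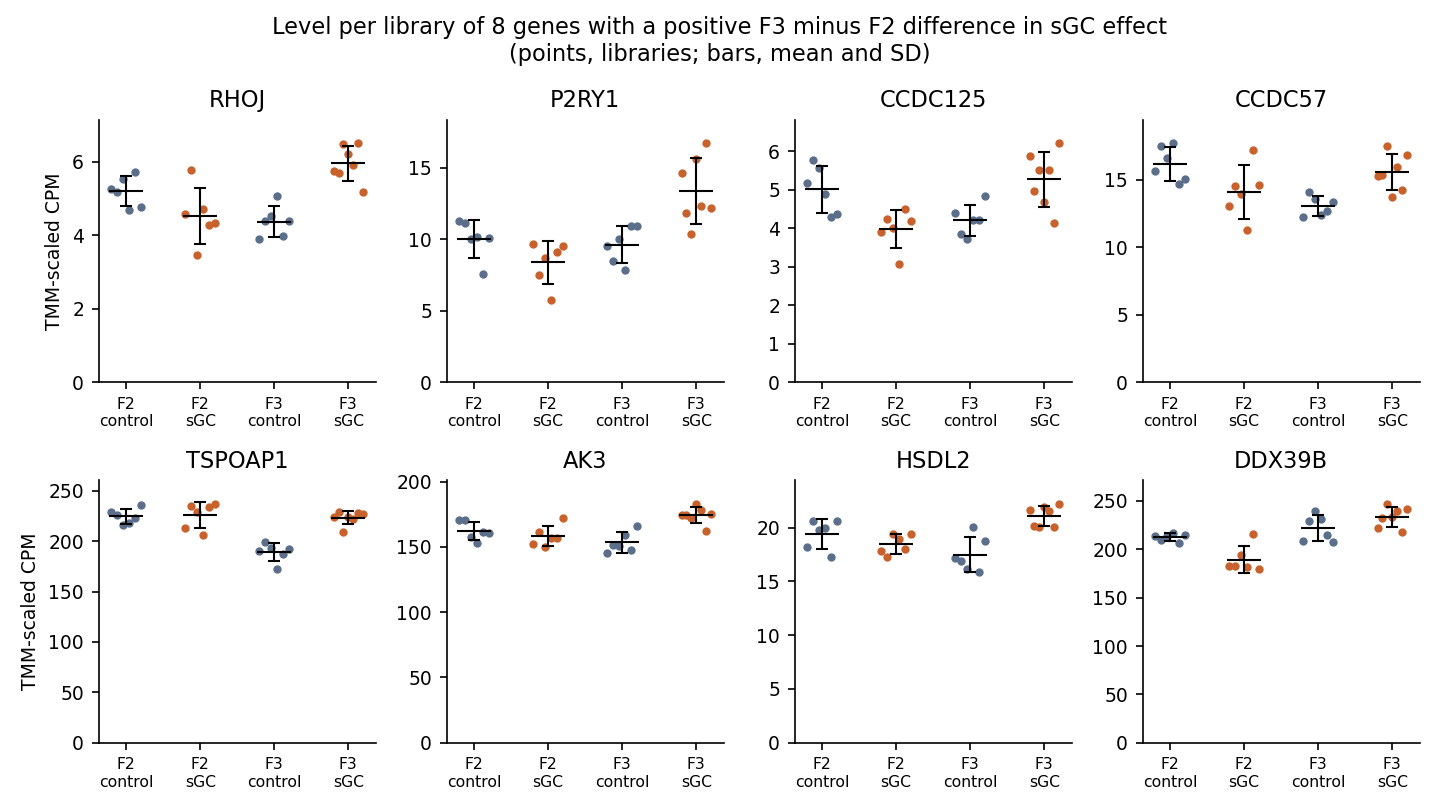
TMM-scaled CPM of 8 genes with a positive interaction in each library (points) of the 4 groups, with mean and SD as black bars and the vertical axes starting at 0. The F3 sGC animals lie above the F3 controls without overlap in RHOJ and TSPOAP1, and in DDX39B the F2 sGC group is the low one.

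Receptors of corticosteroids and their partners were followed as a list of 16 genes, of which 14 were tested. In F3, 4 fell and 1 rose (0 without F3 sGC replicate 5), with 0 in F2, against 4.74% lower and 3.77% higher of all genes. Those that fell were NR3C2, HSP90AA1, HSPA4 and STIP1, the last 3 being listed as members of the chaperone machinery that serves steroid receptors. HSP90AA1 had an effect of -0.17 in F3 and -0.035 in F2. For NR3C1, the glucocorticoid receptor, levels were 107, 119 and 127 CPM in F2 control, 112, 116 and 128.4 CPM in F2 sGC, 99.5, 105 and 109 CPM in F3 control and 95.7, 111 and 115 CPM in F3 sGC animals, with overlap in both generations. The interaction of NR3C1 was 0.072 with a 95% interval from -0.050 to 0.19. FKBP5, a glucocorticoid-induced cochaperone, had an interaction of -0.040 (-0.34 to 0.26), whose sign changed when any of 4 single libraries was left out. Among 14 tested targets of the glucocorticoid receptor, such as TSC22D3, PER1 and KLF9, 0 passed in F2, in F3 or in the interaction, and 0 had an unadjusted interaction p below 0.05. Their median effect was 0.00098 in F2 and 0.032 in F3.

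Of the 14 tested genes of inhibitory neurons, 3 fell in F3 (4.74% of all genes did) and 0 in F2. GAD1 and GAD2, the enzymes that make GABA, fell in F3 by 0.24 and 0.20 on the log2 scale (adjusted p = 0.00495 and 0.0172 by edgeR), and their F2 effects were -0.032 and -0.030. GAD1 levels were 276, 296 and 318 CPM in F2 control, 254, 286 and 318 CPM in F2 sGC, 276, 296 and 316 CPM in F3 control and 216, 249 and 296 CPM in F3 sGC animals, and the groups overlapped in both generations. The interactions of GAD1 and GAD2 were -0.21 (-0.37 to -0.053) and -0.17 (-0.32 to -0.014), with adjusted p of 0.292 and 0.391. Of the 14 tested genes of interneurons and GABA synthesis, 13 had an interaction below 0, as had 5613 of all 11341 genes. At an unadjusted p below 0.05, 5 of the 14 lay below 0 (6.59% of all genes did). The list's median interaction was -0.15, the lowest of the 46 lists. SLC32A1, which loads GABA into vesicles, passed in F3 beside GAD1 and GAD2 (-0.25, adjusted p = 0.0200), while the interneuron markers SST (-0.052) and PVALB (-0.024) did not. The summed level of the list ran from 1517 to 1605 (median 1538) CPM in F3 control and from 1265 to 1559 (median 1405) CPM in F3 sGC animals, and from 1441 to 1616 (median 1526) and 1436 to 1643 (median 1533) CPM in F2 control and F2 sGC. In bulk tissue, fewer cells of a type and less RNA per cell cannot be told apart.

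GABA acts on ion channel and G protein-coupled receptors. Of 13 subunits tested, 5 fell in F3 (4.74% of all genes did) and 0 in F2, 12 had an interaction below 0 and 6 did so at an unadjusted p below 0.05 (6.59% of all genes), with a median of -0.14 in F3 and 0.034 in F2. GABRA5, abundant in hippocampal pyramidal neurons, had -0.14 in F3 and 0.060 in F2, and GABRA2 fell as well, by 0.20. Of 21 glutamate receptor subunits 2 passed in F3 (9.52%, near the 8.5% of all genes), and 0 with the F1 libraries in the fit. They were GRIA1 (-0.15, against -0.0070 in F2) and GRIN1 (-0.16 and 0.0047). GRIA1, an AMPA receptor subunit, also differed in level between the generations, with control means of 655 CPM in F2 and 1283 CPM in F3. GRIN2A, an NMDA receptor subunit, had an interaction of 0.083 (-0.13 to 0.29), with libraries that stood apart in 3 of its 4 groups. BDNF, a neurotrophin, had 0.078 in F2 and -0.19 in F3, and CRH, the corticotropin-releasing hormone, -0.045 and -0.39, at an adjusted interaction p of 0.279 and 0.714. Neither F3 effect passed (adjusted p = 0.0707 and 0.273 by edgeR). CRH was low, with group means from 1.53 to 2.01 CPM.

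At the synapse, 11 of 42 tested genes of vesicles and SNARE fusion fell in F3 and 2 rose, with 0 in F2, against 4.74% lower and 3.77% higher of all genes. Beside SYP, the vesicle proteins SV2A (-0.23 in F3, -0.029 in F2) and SV2B (-0.22 and -0.056) and the SNARE protein SNAP25 (-0.19 and -0.065) fell. RIMS2, a scaffold of the release site, rose by 0.20 against 0.019 in F2. Over the list the median interaction was -0.017, and 23 of 42 genes lay below 0.

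The vacuolar proton pump (V-ATPase), which acidifies synaptic vesicles and lysosomes, had 8 of 16 subunits lower in F3 (4.74% of all genes were) and 0 higher, and 0 called in F2. The median effect was -0.15 in F3 and -0.020 in F2. At an unadjusted p below 0.05, 8 subunits had an interaction below 0 (6.59% of all genes did). ATP6V1A and ATP6V1B2, of the catalytic head, had -0.18 and -0.16 in F3 against -0.051 and -0.022 in F2. Summed over the list, F3 control animals had 5073 to 5211 (median 5158) CPM and F3 sGC animals 4449 to 4869 (median 4726) CPM, without overlap, while the F2 groups had 4612 to 4896 (median 4692) and 4355 to 4941 (median 4700.4) CPM. Without F3 sGC replicate 5, 6 subunits passed.

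Heat shock proteins and chaperonins had 15 of 66 genes lower and 3 higher in F3, against 4.74% and 3.77% of all genes. The lower ones included HSPA8 (-0.25 in F3, -0.054 in F2), the constitutive HSP70, and the chaperonin subunits CCT8 (-0.21 and -0.016) and CCT2 (-0.16 and -0.013), and the higher ones DNAJC15 and DNAJC27 (0.19 and 0.15). HSPA1B, a stress-inducible HSP70, had its larger effect in F2, with 0.28 in F2 and -0.031 in F3 (interaction adjusted p = 0.346 by edgeR), and its control mean was 47.3 CPM in F2 and 142 CPM in F3.

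Cytosolic ribosomal proteins were the list with the most genes higher in F3, 42 of 49 tested (3.77% of all genes were higher), with 0 lower and 0 called in F2. Their F2 effects pointed the same way at a smaller size. In F2 45 of 49 were above 0 with a median of 0.082, and in F3 47 with a median of 0.20. Of the interactions, 46 lay above 0, and 16 did so at an unadjusted p below 0.05 (4.89% of all genes). The last count was 26 without F2 sGC replicate 6, 27 without the sGC libraries numbered 32 to 36, 11 without F3 sGC replicate 5 and 2 with the F1 libraries in the fit. RPL28 had 0.11 in F2 and 0.35 in F3, and RPL26 0.082 and 0.31. Summed CPM were 7217 to 7692 (median 7385) in F2 control, 7337 to 8332 (median 7737) in F2 sGC, 7216 to 8748 (median 8185) in F3 control and 8773 to 10150.4 (median 9270.3) in F3 sGC animals, and the F3 sGC libraries lay above all others. Without F3 sGC replicate 5, 38 passed, and with the F1 libraries in the fit 12 did. These genes have many near-identical pseudogene copies, between which the counting could split reads.

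Astrocytes clear glutamate and make up much of the glia of the hippocampus. Of 15 markers tested of 16 listed, 7 rose in F3 (3.77% of all genes did) and 0 fell, and 13 interactions lay above 0, with a median of 0.15 in F3 and 0.037 in F2. SLC1A2, the astrocyte glutamate transporter, had 3974, 4132 and 4946 CPM in F2 control, 3941, 4116 and 5288 CPM in F2 sGC, 3046, 3387 and 3577 CPM in F3 control and 3501, 3939 and 4544 CPM in F3 sGC animals, and the groups overlapped in both generations. It rose in F3 by 0.24 (adjusted p = 0.0235 by edgeR) with an interaction of 0.22 (0.025 to 0.41), and the glutamine synthetase GLUL rose by 0.15 against -0.039 in F2. The summed astrocyte level ran from 13420.1 to 14513 (median 13651) CPM in F3 control and from 14824 to 16609.9 (median 15231) CPM in F3 sGC animals, without overlap, and from 14097 to 15791 (median 14428) and 14122 to 16702 (median 14579) CPM in the F2 groups. Pyramidal neuron markers gave 1132 to 1173 (median 1156) CPM in F3 control and 991 to 1197 (median 1161) CPM in F3 sGC animals, and 0 rose and 0 fell, with 10 of 12 interactions below 0. Without F3 sGC replicate 5, 5 astrocyte markers rose, while 3 interneuron genes, 5 GABA receptor subunits, 10 vesicle and SNARE genes and 15 heat shock genes fell. With the F1 libraries in the fit, 1 astrocyte marker rose, and 2 interneuron genes, 2 GABA receptor subunits, 5 vesicle and SNARE genes, 5 V-ATPase subunits and 12 heat shock genes fell. The part of cell makeup in the neuronal and astrocyte results was not tested.

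**Figure D5:**
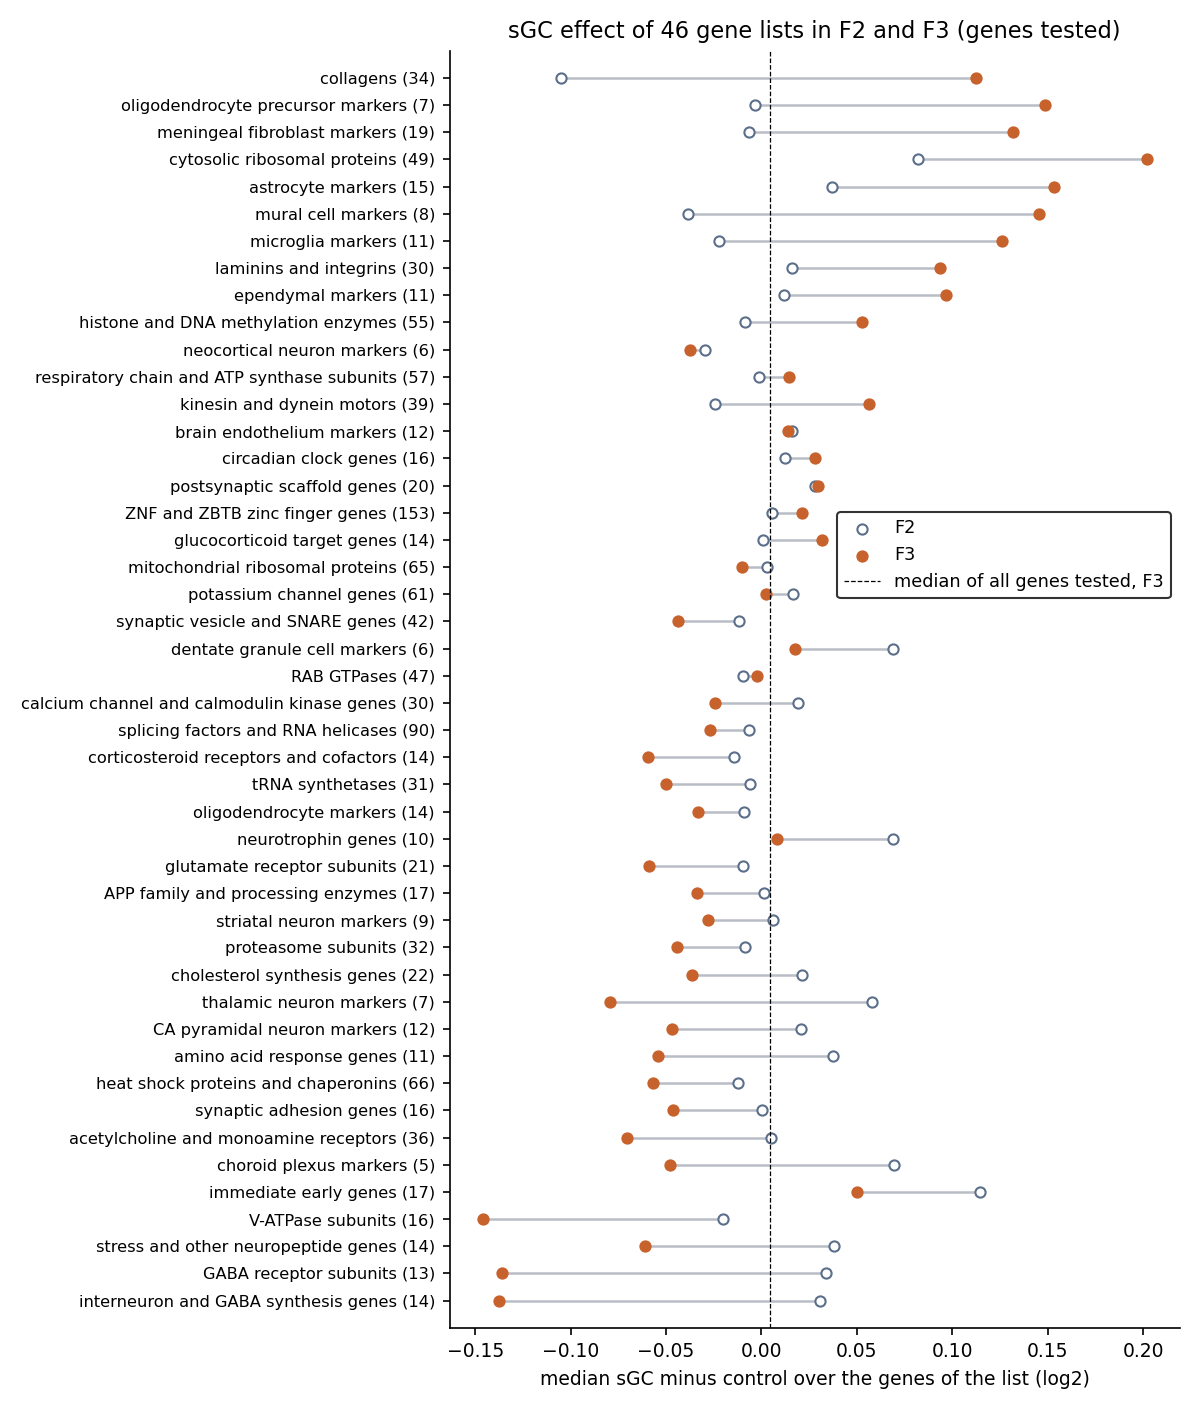
Median log2 difference of sGC minus control in F2 (open points) and F3 (filled points) over the tested genes of each of 46 lists, ordered by the median interaction, with the number of genes tested in brackets and the F3 median of all genes as a dashed line. V-ATPase subunits, GABA receptor subunits and interneuron genes have the lowest F3 medians, and cytosolic ribosomal proteins the highest.

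Collagens had the highest median interaction of the 46 lists, 0.24, with no call in either generation. Of 34 tested, 27 had an F2 effect below 0 (median -0.11) and 26 an F3 effect above 0 (median 0.11), and 3 interactions had an unadjusted p below 0.05, which is 8.82% against 11.5% of all genes. COL1A1, a fibrillar collagen of meninges and vessels, had -0.20 in F2 and 0.23 in F3. The summed level overlapped between all groups, at 924 to 1086 (median 1006), 758 to 1096 (median 925), 812 to 1020.4 (median 944) and 896 to 1059.8 (median 966) CPM in F2 control, F2 sGC, F3 control and F3 sGC.

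Among the 1302 genes with an unadjusted interaction p below 0.05, the F3 effect was the larger in 1050 and the F2 effect in 252. F1, whose libraries entered neither effect, gave a sign for 1297 of them, and it matched the sign of the interaction in 1023. The share of such matches over all genes was not computed, so this count has nothing to be set against and is no support. Where the F3 effect was the larger, the interaction had the sign of F3. F1 and F3 shared a sign in 62.0% of all genes. For the 964 genes that passed in F3, F1 had the same sign as F3 in 806 (83.6%), against 62.0% over all genes, and the Pearson correlation across genes was 0.18 between F1 and F3 and -0.012 between F1 and F2. F1 had 11 RNA libraries, and its sGC libraries include numbers 32 and 35, from the range 32 to 36 that holds no control. The part of library number in the likeness of F1 and F3 was not tested. In F1, NELL2, HSPH1, APP and SYP had effects of -0.12, -0.17, -0.12 and -0.11, below 0 as in F3. None of these passed in F1 (adjusted p = 0.554, 0.237, 0.473 and 0.472 by edgeR). Of the 10 genes of smallest p per direction, NR3C2 (0.036), CCDC125 (-0.082) and DDX39B (-0.17) had an F1 sign opposite to F3.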

How the data were processed

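The authors deposited, per generation, a table of read counts per gene and library, which are estimated counts here, since the values had been adjusted within each generation and rounded before deposit. The adjustment is not given in the sources used here, nor are the read counter and the genome build of the RNA reads. TruSeq V2 mRNA libraries were sequenced at 51 bases, and TopHat2 and edgeR are named per the labels. The tables also hold the authors' own comparison of sGC with control (fold change, average level, dispersion, likelihood ratio and p-values), which was not used, and neither were the methylation tables, which hold comparisons only. The design had assumed raw counts.

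Libraries were grouped by their labels. Genes in both tables were kept by filterByExpr, scaled by TMM and fitted with group means by edgeR 4.0.16 (glmQLFit and glmQLFTest, R 4.3.3), with Benjamini-Hochberg adjustment over all genes tested and a threshold of 0.05. Effects are log2 fold changes, and levels are TMM-scaled CPM. limma 3.58.1 and DESeq2 1.42.0 were alternatives, beside other scalings and filters, all 36 RNA libraries together, a replicate block, single libraries left out and the removed direction as a covariate. The last, and all alternatives for effects within a generation, were chosen after seeing the data. The removed direction was found as the combination of libraries with the smallest variance of log(count + 1) over genes with at least 20 counts in each library. Library totals of 13507449 to 18909140 leave genes of few CPM with wide errors.

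Genes named were the 10 with the smallest interaction p per direction, none of which passed, and 12 chosen by name. Of these, 1 gene, with some members of the lists, is not reported here. Genes outside this rule are members of the 47 lists (46 with 3 or more genes tested, the blood list having 1) and were picked after their values were seen. Members and lists were chosen with earlier results of these data known, so no list is independent support. The fits were tested on simulated counts. Figures were drawn with matplotlib 3.10.9 in Python 3.11.15.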

Additional observations from a re-analysis of the deposited data

Results flagged for a closer look

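In 8 of 116 sets of libraries (29 genes in 4 groups), 1 library lay so far from the others by Dixon's test that it was marked, where chance marks about 1 in 20. GRIN2A was marked in 3 groups, with F2 control replicate 2 at 478 CPM and F2 sGC replicate 6 at 508 CPM above their groups and F3 control replicate 6 at 249.9 CPM below. F3 sGC replicate 3 was low for NR3C1, at 95.7 CPM, and for TSPOAP1, at 209 CPM. FKBP5 was low in F3 sGC replicate 4, at 8.14 CPM, NR3C2 in F2 sGC replicate 3, at 142 CPM, and P2RY1 in F2 control replicate 5, at 7.59 CPM. The interactions of these 6 genes without the library in question kept their sign except that of FKBP5, and the adjusted p of TSPOAP1 over all single libraries left out ran from 0.0359 to 0.154 by edgeR.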

How the results depend on the processing

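The count of genes with a different sGC effect, 0, stayed 0 by limma-voom, with RLE or upper quartile scaling, without a filter, with a mean of at least 2 CPM, with all 36 libraries, with robust dispersion, without the sGC libraries numbered 32 to 36 and with the removed direction as a covariate. It became 37 by the likelihood ratio test, 96 by DESeq2, 12 at an adjusted p below 0.1 and 2 with a replicate block (NELL2 and C20orf196), and ranged from 0 to 25 without single libraries, the 25 without F2 sGC replicate 6. Replicate numbers did not pair the animals: of 12 same-numbered pairs, 1 had a correlation of deviations above 0.1 (range -0.31 to 0.18), and no sample correlated best with its own number. The F3 count of 964 became 334 with all 36 libraries and 682 with the removed direction as a covariate. Without the sGC libraries numbered 32 to 36, 299 genes were higher and 355 lower in F3. The F3 count ranged from 670 to 975 without single libraries, with 670 without F3 sGC replicate 5. The counts between generations ranged from 4067 to 4661 in control and from 4226 to 4728 in sGC animals. Upper quartile scaling changed their split from 2295 higher and 2242 lower to 1706 and 3062 in control, and from 2306 and 2326 to 1876 and 2906 in sGC animals. Of 1097 recomputed interactions of the 30 named genes, 1039 kept direction and side of the threshold, 54 passed it and 4 changed sign, all of FKBP5 (range -0.10 to 0.060 without single libraries). Of 1702 list medians, 1699 moved by less than the spread between libraries, and the other 3 were of the APP family. The causes were not tested. At these depths and spreads, the 95% interval of the interaction had a median half-width of 0.16 log2 units, without adjustment for the number of genes. A call after that adjustment needs a larger interaction, and NELL2, with the smallest p, did not pass at -0.26.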

Other observations

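Several lists not described above are given here. Markers of vessel-wall (mural) cells and microglia had interactions above 0 in 8 of 8 and 11 of 11 genes tested. Oligodendrocyte precursor (7 of 7) and ependymal markers (11 of 11) did so too, against 5728 of all 11341 genes. The mural and microglia medians were 0.15 and 0.13 in F3 and -0.039 and -0.022 in F2. PDGFRB, a receptor of pericytes, had 0.20 in F3 and P2RY12, a receptor of resting microglia, 0.24 (adjusted p = 0.0453 and 0.0428 by edgeR), each the only gene of its list to pass. That is 12.5% of the mural and 9.09% of the microglia list, near the 8.5% of all genes. Both calls were lost without F3 sGC replicate 5, with the removed direction as a covariate and with all 36 libraries. Summed mural levels were 268 to 368 (median 315) CPM in F3 control and 332 to 376 (median 342) CPM in F3 sGC animals, which overlapped. SOX6, a factor of oligodendrocyte precursors, rose by 0.29 in F3 (adjusted p = 0.00106) and was -0.0043 in F2, and none of the 14 tested markers of mature oligodendrocytes passed. SOX6 was the only gene to pass in F3 among 7 precursor markers (14.3%, against 8.5% of all genes). Of 31 tRNA synthetases, 8 fell in F3 (4.74% of all genes did), among them EPRS (-0.15, against -0.00084 in F2). The count was 5 without the sGC libraries numbered 32 to 36 and 2 with all 36 libraries, and MARS2, the mitochondrial methionine enzyme, rose by 0.46. Against 4.74% of all genes lower in F3, splicing factors and RNA helicases had 13 of 90 genes lower and 0 higher in F3 (8 lower without the sGC libraries numbered 32 to 36 and 7 with all 36 libraries), with DDX10 at -0.30 and -0.019 in F3 and F2. Immediate early genes, which respond to neuronal activity, had 15 of 17 effects above 0 in F2 and 10 in F3, with medians of 0.11 and 0.050 and no interaction at an unadjusted p below 0.05. Of these, EGR4 passed in F3 (0.10, adjusted p = 0.0300 by edgeR), and among neuropeptide genes the opioid peptide gene Pdyn (-0.19, adjusted p = 0.0326, and 0.065 in F2). Each was the only gene of its list to pass in F3 (5.88% and 7.14%), a share below the 8.5% of all genes. Both calls were lost without F3 sGC replicate 5, with the removed direction as a covariate and with all 36 libraries.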
